A study of Mus musculus with 3 samples.

Results

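The 8 genes described here encode G protein-coupled receptors of the Gpr series that are known from lymphocytes: Gpr83, Gpr15, Gpr18, Gpr55, Gpr65, Gpr132, Gpr171 and Gpr174. They were taken by their symbols from the 55536 genes of the M21 tables, and all 8 were found. Polyadenylated RNA came from regulatory T cells (Tregs, CD4 T cells defined by the factor Foxp3 that hold immunity in check) of the mouse, labelled as inflammation-experienced and as originating from activated Tregs, at 12 weeks of age. The 3 libraries are labelled technical replicates 1 to 3 of 1 biosample from 1 donor, so they form 1 group with no control group. Strain, genotype, inflammatory treatment and sorting gate are not given in the sources used here.

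G protein-coupled receptors sit in the cell membrane, bind a ligand outside the cell and switch on G proteins inside it. The alpha subunit of the G protein sets the route: the Gs class raises cyclic AMP, the Gi class lowers it, and the Gq class turns on phospholipase C. In lymphocytes such receptors steer migration and tune activation. Gpr83 and Gpr15 are known from Tregs in particular, Gpr83 as a transcript that accompanies Foxp3 and Gpr15 as a homing receptor for the large intestine.

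Total expected counts over genes were 35592206, 31611422 and 37728241 in libraries 1 to 3. The defining Treg and T cell transcripts were present. All 14 genes of that list reached a TPM (a level corrected for transcript length and library size) of at least 1 in every library, among them Foxp3 at 98.1, 98.4 and 96.5 TPM. Library 3 stood apart through 6 gland transcripts led by Bpifa2, which took 5.68% of its TPM against 0.000491% and 0.0011% in libraries 1 and 2. They lower every other TPM of library 3 by that share. Comparisons between libraries therefore used expected counts scaled by TMM (edgeR's trimmed mean normalization). Between any 2 libraries, 8970 to 11045 of 18253 genes differed by more than Poisson counting noise, so none was a repeat deposit of another. Over genes whose mean count reached 50, edgeR's common coefficient of variation between the libraries was 0.234. The p-values for libraries given below are set against counting noise alone and leave that wider spread out.

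All 8 receptors were expressed in all 3 libraries, and their levels spanned a 7.7-fold range. Gpr15, Gpr174, Gpr18 and Gpr83 led with means of 77.0, 74.8, 69.1 and 66.5 TPM. Gpr65 and Gpr171 followed at 41.9 and 38.2 TPM, then Gpr132 at 27.8 TPM and Gpr55 at 10 TPM. Every receptor exceeded 1 TPM in every library, a level that 47.6% of the 22028 protein-coding genes reached, and 7 of the 8, all but Gpr55, exceeded 10 TPM in every library, as did 35.5%. The median of the 8 means was 54.2 TPM, against 1.04 TPM over protein-coding genes. Each mean stood above those of 63% (Gpr55) to 88.7% (Gpr15) of protein-coding genes. In bulk RNA, fewer expressing cells and less RNA per cell cannot be told apart.

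**Figure D1:**
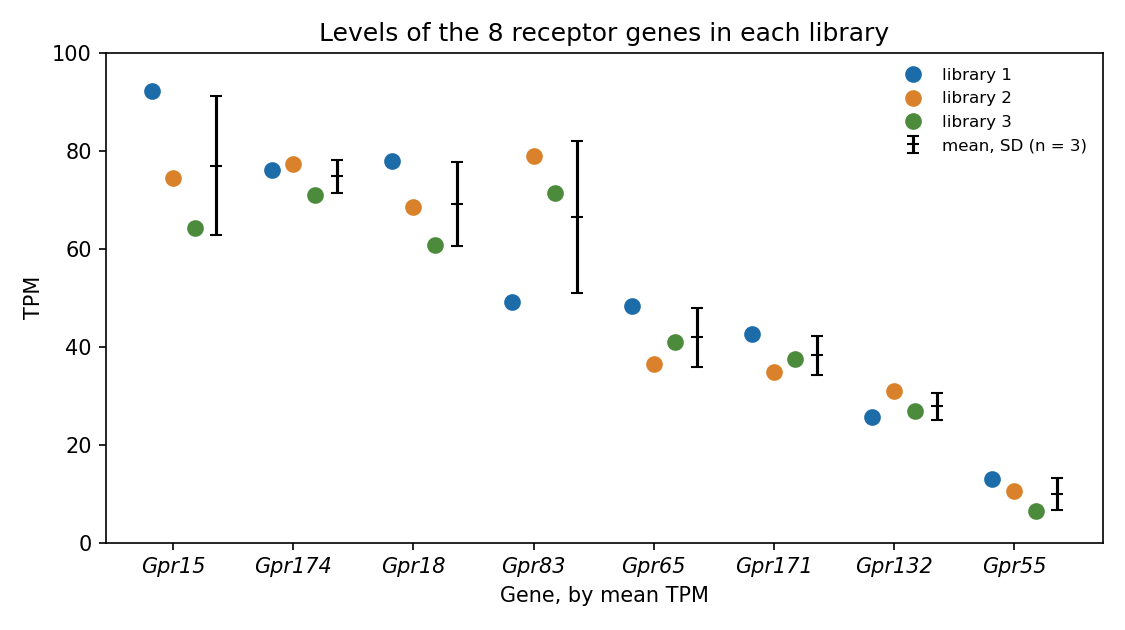
TPM of each of the 8 receptor genes (horizontal axis, ordered by mean) in libraries 1, 2 and 3 (coloured points), with the mean and SD over the 3 libraries (black). Gpr83 is lowest in library 1 at 49.1 TPM, and Gpr15, Gpr18 and Gpr55 are highest there.

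The order of levels held in part. Of the 28 pairs among the 8 genes, 20 were apart, meaning that the difference had 1 sign in all 3 libraries, that the genes' ranges were separate and that so were the bounds the authors give for TPM, library by library. Those bounds surround the authors' posterior mean TPM, which is about the same estimate on a slightly lower scale. Of the 7 pairs of neighbours in the order, 2 were apart: Gpr171 lay above Gpr132 by 0.45 ± 0.27 and Gpr132 above Gpr55 by 1.43 ± 0.48 in log2(TPM + 1) (SD, n = 3). Gpr15, Gpr174, Gpr18 and Gpr83 could not be put in order by this rule. Gpr65 exceeded Gpr171 by 0.12 ± 0.06 in all 3 libraries, but their ranges overlapped. Gpr83 exceeded Gpr65 by 0.63 ± 0.55, and in library 1 their TPM were 49.1 and 48.3. The exact permutation test by sign flips, two-sided, cannot go below p = 0.25 with 3 libraries, and all 20 pairs that were apart had that p, so no pair could pass 0.05.

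Gpr15, Gpr83 and Gpr171 are receptors with peptide or protein ligands. Gpr15 (ENSMUSG00000047293.7, mm10 chromosome 16, 58717433 to 58719070, minus strand) is a receptor for a peptide made by epithelia and guides T cells, Tregs among them, to the large intestine. It had 92.3, 74.4 and 64.3 TPM in libraries 1 to 3, from 3235, 2295 and 2460 expected counts. Library 1 was the highest and library 3 the lowest. Its TMM-scaled counts were 1.22-fold higher in library 1 than in library 2 (Poisson chi-square, Benjamini-Hochberg adjusted p = 6.06e-12) and 1.32-fold higher than in library 3 (adjusted p = 3.92e-23). The gene has a single annotated transcript with 1 exon. Its exons share 204 bases with those of Cpox, a gene of heme synthesis on the opposite strand that had 3272, 2718 and 2853 counts and was likewise highest in library 1. Whether the counting used strand was not given in the sources used here, so reads in the shared stretch may have been split between the genes. The authors' posterior standard deviation for Gpr15 was 10.7, 8.92 and 9.59 counts, small against its totals. That value is an uncertainty within the authors' own estimate and cannot show whether reads went to the wrong gene.

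Gpr83 (ENSMUSG00000031932.14, chromosome 9, 14860210 to 14870789, plus strand) is best known as a Treg-enriched receptor, and the neuropeptide PEN has been reported as a ligand. It had 49.1, 78.9 and 71.3 TPM, from 3442, 4890 and 5434 counts. Library 1 was the low one, and libraries 2 and 3 were close. On TMM-scaled counts Gpr83 was 1.65-fold lower in library 1 than in library 2 (adjusted p = 6.64e-111) and 1.58-fold lower than in library 3 (adjusted p = 1.43e-96). Libraries 2 and 3 differed by 0.06 ± 0.028 on the log2 scale (counting error), which did not pass (adjusted p = 0.0537). Its next gene on the chromosome, 15025 bases away on the opposite strand, is Izumo1r, which encodes the Treg surface protein folate receptor 4. Izumo1r did not share the low value of library 1, with 916, 844 and 885 TPM.

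The authors' transcript estimates put most of Gpr83 on coding transcripts that begin 44 bases apart. Gpr83-202 took 61.1 ± 2.2% of the gene's TPM and Gpr83-201 took 33.4 ± 2.21% (SD, n = 3). The retained-intron transcript Gpr83-203 took 5.47 ± 0.441%. The promoter window is shown because both coding starts fall inside it. It runs from 250 bases before to 50 bases after the RefSeq start, on GRCm38.p6 (the mm10 assembly) at chr9:14859960-14860259, plus strand, with the only match to TATAAA, the core of the TATA box, in capitals.
Gpr83: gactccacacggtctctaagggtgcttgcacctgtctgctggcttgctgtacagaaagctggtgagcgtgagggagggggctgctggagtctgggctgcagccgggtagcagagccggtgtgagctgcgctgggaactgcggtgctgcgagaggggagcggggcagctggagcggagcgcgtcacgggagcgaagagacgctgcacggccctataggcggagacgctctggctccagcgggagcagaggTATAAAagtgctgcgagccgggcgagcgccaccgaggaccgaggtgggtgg
The match begins 1 base before the annotated start of Gpr83-201 and 45 bases before that of Gpr83-202, the transcript with the larger share. TATAAA stood on either strand in 13.6% of 32851 RefSeq promoter windows. The window is 67% G and C, the highest of the 7 receptors with a promoter in the table, where Gpr171 was not matched.

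Gpr171 (ENSMUSG00000050075.8, chromosome 3, 59096448 to 59101821, minus strand), for which the neuropeptide BigLEN has been reported as a ligand, had 42.5, 34.8 and 37.4 TPM. Library 2 was the lowest, 1.2-fold below library 1 (adjusted p = 6.18e-07) and 1.15-fold below library 3 (adjusted p = 0.000168). The difference from library 3 did not pass in the M4 counts, with a log2 difference of -0.14 and an adjusted p of 0.0972. These are a second deposited count with totals of 9718021, 8945992 and 9904722 in libraries 1 to 3. These totals are lower than those of the main counts, and why the difference did not pass was not tested. Gpr171 lies inside Med12l, a gene on the opposite strand, without shared exon bases, and Med12l had 27 to 97 counts. The neighbouring purine receptor gene P2ry14 was low, at 2.72 ± 0.737 TPM. The genes that encode these peptides had few or no counts. Pcsk1n, which encodes the precursor of both PEN and BigLEN, had 0, 0 and 1 counts, and 2610528A11Rik, which encodes the Gpr15 ligand, had 6, 0 and 5.

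Gpr174, Gpr18, Gpr55 and Gpr132 are described as receptors for lipids. Gpr174 (ENSMUSG00000073008.11, chromosome X, 107255878 to 107296769, plus strand) is a receptor for lysophosphatidylserine, a lipid that restrains T cells and Tregs through it. It had 76.0, 77.3 and 71.0 TPM, from 4978, 3870 and 4729 counts. Its TMM-scaled counts were 1.11-fold higher in library 1 than in library 2 (adjusted p = 4.43e-06), whereas its TPM was highest in library 2. Of the other lysophosphatidylserine receptors, P2ry10 stood at 57.3 ± 9.01 TPM, Gpr34 at 26.4 ± 1.19 TPM and P2ry10b, the next protein-coding gene toward lower coordinates, at 3.41 ± 0.284 TPM.

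Much of the Gpr174 TPM rested on a short noncoding transcript. Gpr174-205, a processed transcript of 455 bases, took 36.5%, 47.4% and 36.8% of the gene's TPM in libraries 1 to 3, but 4.99%, 7.47% and 5.4% of its expected counts. TPM divides counts by length, and the 5 coding transcripts were longer, at 3536 to 5112 bases. Gpr174-205 had 248 to 289 counts in a library. The coding transcript Gpr174-203 took 59.3 ± 10.8% of counts and 32.2 ± 3.79% of TPM. With the 5 protein-coding transcripts alone, Gpr174 had 48.3, 39.4 and 43.0 TPM, a mean of 43.5 ± 4.47. This measure was added after the values had been seen, and it moved Gpr174 from the level of Gpr15 to that of Gpr65. In the second deposited count, made against annotation M4, Gpr174 had 32.3 ± 3.19 TMM-scaled counts per kilobase at a common depth, below Gpr65 at 41 ± 4.32 and Gpr171 at 43.2 ± 2.81. That measure divides M4 counts by M21 lengths, so it mixes annotations and is no independent check of the coding level. In library 1, Gpr174 had 912 M4 counts against 4978 in M21, and Gpr65 had 890 against 2152.

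**Figure D2:**
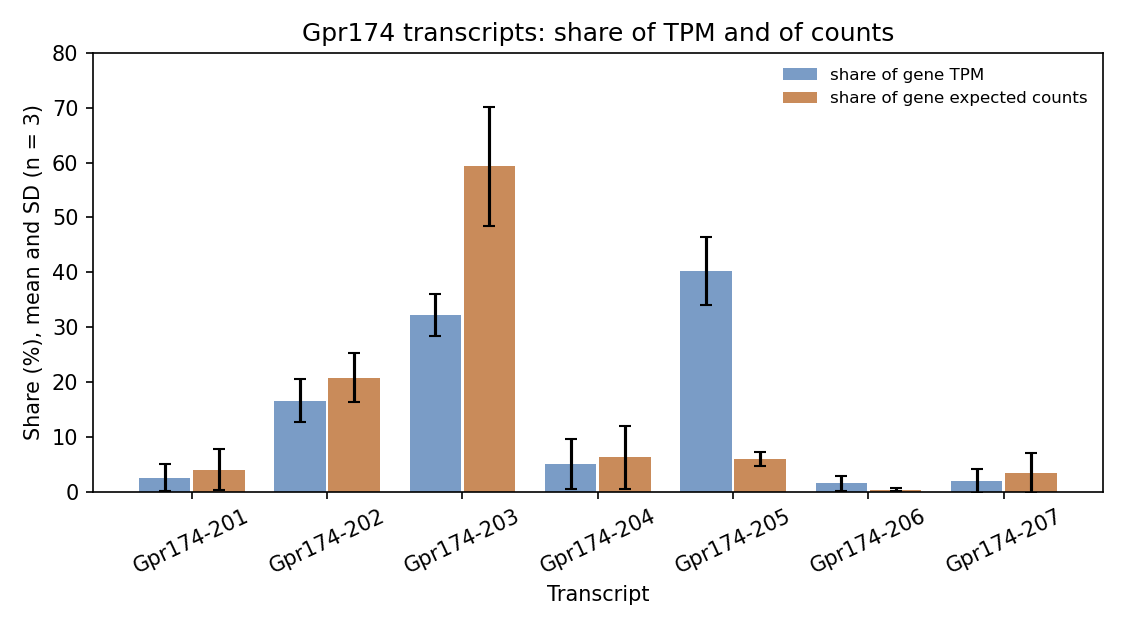
Share of the TPM (blue) and of the expected counts (orange) of Gpr174 taken by each of its 7 annotated transcripts, as mean and SD over the 3 libraries. Gpr174-205 takes 40.2% of the TPM with 5.95% of the counts, while Gpr174-203 takes 32.2% of the TPM with 59.3% of the counts.

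Most reads of Gpr174 were assigned to transcripts that begin far from the RefSeq start. The 4 transcripts that start within 500 bases of the first base of the GENCODE gene took 90.4 ± 3.16% of its counts. The RefSeq start lies 28375 bases downstream of the start of Gpr174-203. Gpr174-206 and Gpr174-207, which begin at the RefSeq start, took 0.332 ± 0.289% and 3.35 ± 3.68% of counts. These shares are the authors' model estimates from reads that the transcripts have in common, and they differed between libraries: Gpr174-207 took 7.37%, 2.52% and 0.146% of counts in libraries 1 to 3.

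Gpr18 (ENSMUSG00000050350.8, chromosome 14, 121911253 to 121915781, minus strand), a receptor abundant in lymphocytes whose proposed ligands include N-arachidonoyl glycine, had 78.0, 68.6 and 60.9 TPM. Library 1 was the highest, 1.17-fold above library 3 on TMM-scaled counts (adjusted p = 4.54e-07), and libraries 2 and 3 did not pass the test (adjusted p = 0.153). The gene sits inside Ubac2 on the opposite strand with no shared exon bases. Its next protein-coding neighbour is Gpr183, the oxysterol receptor that places lymphocytes in follicles and T cell zones, 36770 bases away on the same strand. Gpr183 had 82.9, 83.9 and 68.4 TPM.

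Gpr55 (ENSMUSG00000049608.8, chromosome 1, 85938318 to 85961007, minus strand), a receptor for lysophosphatidylinositol, was the lowest of the 8 and varied most between libraries. It had 12.9, 10.6 and 6.52 TPM, from 1047, 752 and 577 counts, and fell in this order in the second count as well, with 354, 205 and 199. On TMM-scaled counts library 1 was 1.82-fold above library 3 (adjusted p = 1.25e-29), and library 2 was 1.51-fold above library 3 (adjusted p = 7.13e-13). The last of these did not pass in the M4 counts, with a log2 difference of 0.19 and an adjusted p of 0.321. There the larger step lay between libraries 1 and 2, at 0.66 in log2 against 0.26 in the main counts. An opposite-strand gene, 4933407L21Rik, shares 71 exon bases and had 57, 6 and 14 counts. Over 10196 other protein-coding genes whose mean count reached 100, those with the most similar pattern over the 3 libraries were Rwdd3, Atp6v1g2 and Cela1. Their distances were 0.016, 0.041 and 0.045 in centred log2 counts, and 16 genes lay within 0.1, a likeness that rests on 3 libraries of 1 biosample.

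Gpr132 (ENSMUSG00000021298.8, chromosome 12, 112850873 to 112868228, minus strand), reported to respond to lysophospholipids and oxidised fatty acids, had 25.6, 31.0 and 26.8 TPM. Like Gpr83, it was lowest in library 1 and highest in library 2 on TMM-scaled counts, with a 1.27-fold difference (adjusted p = 1.59e-09). Gpr132-201 took 98.7 ± 1.66% of its TPM. Among enzymes of these lipids, Faah, which breaks down fatty acid amides, led with 109.6 ± 6.23 TPM. Mboat7, which puts arachidonate onto lysophosphatidylinositol, stood at 65.9 ± 10.2 TPM, Abhd12, the lipase of lysophosphatidylserine, at 64.4 ± 4.43 TPM, and Abhd16a, which makes that lipid, at 57.6 ± 4.34 TPM. Pla1a, a secreted enzyme that can also make it, had 2, 8 and 5 counts. Of the 15 ligand genes and enzymes listed, 9 were detected (at least 1 TPM in every library), with a median of 5.31 TPM.

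Gpr65 (ENSMUSG00000021886.7, chromosome 12, 98268635 to 98276644, plus strand), also called TDAG8, senses extracellular acid and raises cyclic AMP. It had 48.3, 36.4 and 41.0 TPM, from 2152, 1429 and 1994 counts. Library 2 was the lowest, 1.3-fold below library 1 (adjusted p = 1.5e-13) and 1.2-fold below library 3 (adjusted p = 4.74e-07). Gpr4, another proton-sensing receptor, had 0, 0 and 15 counts. The antisense gene Gm47566, which shares 511 exon bases with Gpr65, had 0 counts in each library.

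All 8 receptors passed the test for a difference among the 3 libraries, as did 77.2% of all 18253 genes tested and 83.9% of the 8475 whose mean count reached 500. This count is near the background. The highest library exceeded the lowest by 1.5-fold or more for 2 of the 8, Gpr55 (1.815) and Gpr83 (1.647), as against 36.5% of all genes tested and 6.17% of those whose mean count reached 500. By point values the receptors fell into 3 orders on TMM-scaled counts. Gpr15, Gpr18 and Gpr55 ran from library 1 down to 2 and 3. Gpr65, Gpr171 and Gpr174 were highest in library 1 and lowest in library 2, although the TPM of Gpr174 was highest in library 2. Gpr83 and Gpr132 were lowest in library 1 and highest in library 2. Thus 6 of 8 had their highest value in library 1, where 23.8% of all genes tested were called and highest, 2 had it in library 2, against 29.6%, and 0 in library 3, against 23.7%. Library 1 exceeded library 2 for 6 of the 8, against 29.7% of genes tested, and lay below it for 2, against 30.8%. The libraries are technical replicates by label, and the test counts reads as independent molecules. Its p-values therefore cover counting error, and neither the wider spread between libraries nor variation between mice.

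**Figure D3:**
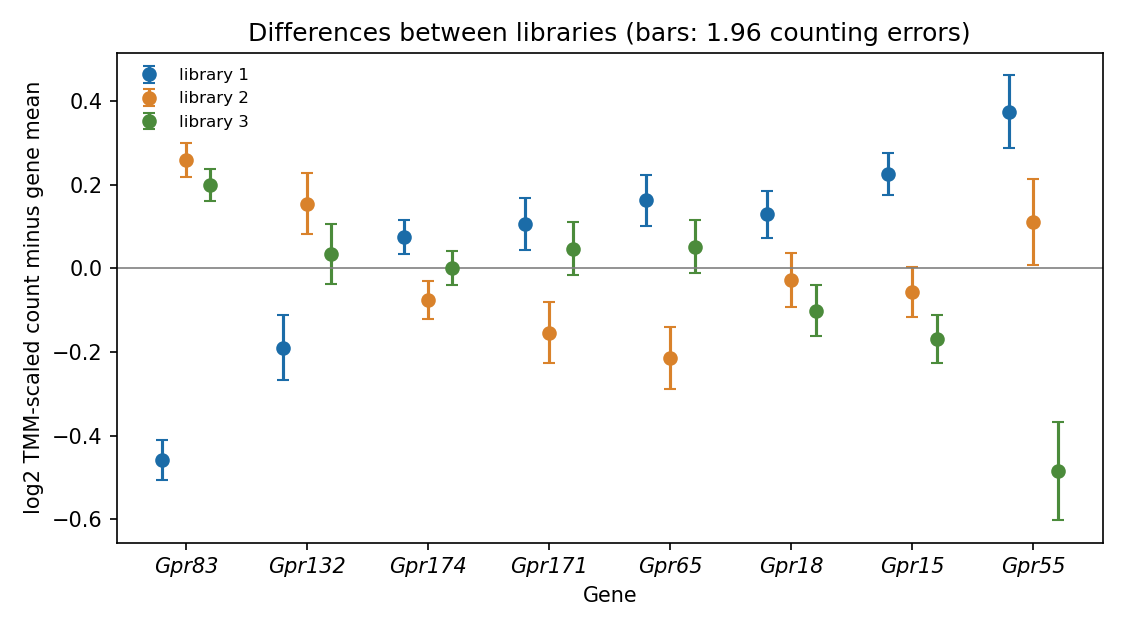
Log2 TMM-scaled counts of each receptor in libraries 1 to 3 (coloured points) minus that gene's mean, with bars for the Poisson counting interval of each point. Gpr83 and Gpr132 are lowest in library 1, and Gpr55 falls from library 1 to library 3 over 0.86 log2 units.

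Several of these receptors are also known from B cells, myeloid cells and CD8 T cells, and markers of those cells were measured beside them. Some B cell and CD8 markers stood at levels within the range of the receptors, while the myeloid genes were lower. The 10 B cell genes summed to 79.1, 75.2 and 74.0 TPM in libraries 1 to 3, led by Cd79b at 30.4 ± 1.49, Cd79a at 16.7 ± 1.68 and Cd22 at 10.9 ± 2.98 TPM, with Pax5 at 4, 5 and 26 counts. Of the 10 B cell genes tested, 9 differed between libraries, with 2, 3 and 4 of them highest in libraries 1, 2 and 3. The 2 highest in library 1 were Cr2 with 316, 128 and 113 counts and Fcer2a with 254, 23 and 73. Over all genes tested, 77.2% differed, and 23.8%, 29.6% and 23.7% did so with their highest value in libraries 1, 2 and 3. Of the CD8, NK and myeloid genes tested, 2 of 2, 2 of 2 and 4 of 5 differed. The 12 myeloid genes summed to 8.64, 8.85 and 10.1 TPM, with Cd14 and Fcgr1 at 0 counts in every library. Cd8a had 1.39, 3.15 and 0.67 TPM and Cd8b1 18.03, 23.38 and 16.2. The 8 dendritic genes summed to 128, 126 and 93.4 TPM, nearly all from Bst2, which is not confined to dendritic cells. Of the 5 dendritic genes tested, 3 differed between libraries, 2 of them highest in library 1 and 1 in library 2, beside the same shares over all genes. Zbtb46 had 584, 236 and 172 counts, Xcr1 54, 4 and 21, Flt3 10, 18 and 17, Siglech 7, 0 and 19, and Clec9a 0, 0 and 1. The 6 NK genes summed to 2.62, 3.01 and 3.2 TPM. The part of other cells in the receptor levels was not tested.

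A short motif stood near the RefSeq starts of Gpr15, Gpr18, Gpr55 and Gpr132. The letters TGTGGT, a core bound by RUNX factors, stood on either strand in 4 of 7 receptor windows and in 16.8% of 32851 RefSeq windows. The stretches of 30 bases around the matches are shown in the direction of each gene, all on the minus strand of GRCm38.p6, with the matches in capitals; ACCACA is TGTGGT on the other strand.
Gpr15: agaaagaaaACCACAACCACAgccaatacc
Gpr18: gtgaaagagaaaACCACAtccagggtaaag
Gpr55: atgcaggaggccACCACAgtgacacaagag
Gpr132: gctagcctgcgtTGTGGTtaggggagttcc
They lie at chr16:58718937-58718966, chr14:121915902-121915931, chr1:85961188-85961217 and chr12:112860995-112861024. Gpr15 held 2 adjoining matches, from 85 to 74 bases before its RefSeq start, a start that lies 198 bases inside the GENCODE transcript. By the GENCODE annotation used for the counts, the Gpr15 matches thus lie within its single exon, in transcribed sequence. Of 6 other motifs searched on both strands, TGTTTAC (forkhead), TGACGTCA (cyclic AMP response) and CCGGAA (ETS) were in no receptor window and in 3.65%, 1.79% and 14.9% of all windows. TGANTCA (AP-1) was in that of Gpr15 alone, against 7.81% of all windows, and TATAAA in those of Gpr83 and Gpr65. CACCC (KLF) was in 4 windows and in 57.5% of all windows. A match describes letters and shows no binding.

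Among the 74 genes whose symbol is Gpr and a number, the 8 receptors took 48.1%, 49.7% and 49.3% of the summed TPM. They ranked from place 3 (Gpr15) to place 18 (Gpr55). Of the 66 others, 15 were detected (22.7%), with a median of 0.085 TPM. Among these others were Gpr183 at 78.4 ± 8.67, Gpr108 at 70.6 ± 8.36, Gpr107 at 44.5 ± 3.18 and Gpr34 at 26.4 ± 1.19 TPM. Gpr107 and Gpr108 encode proteins of internal membranes rather than typical surface receptors.

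**Figure D4:**
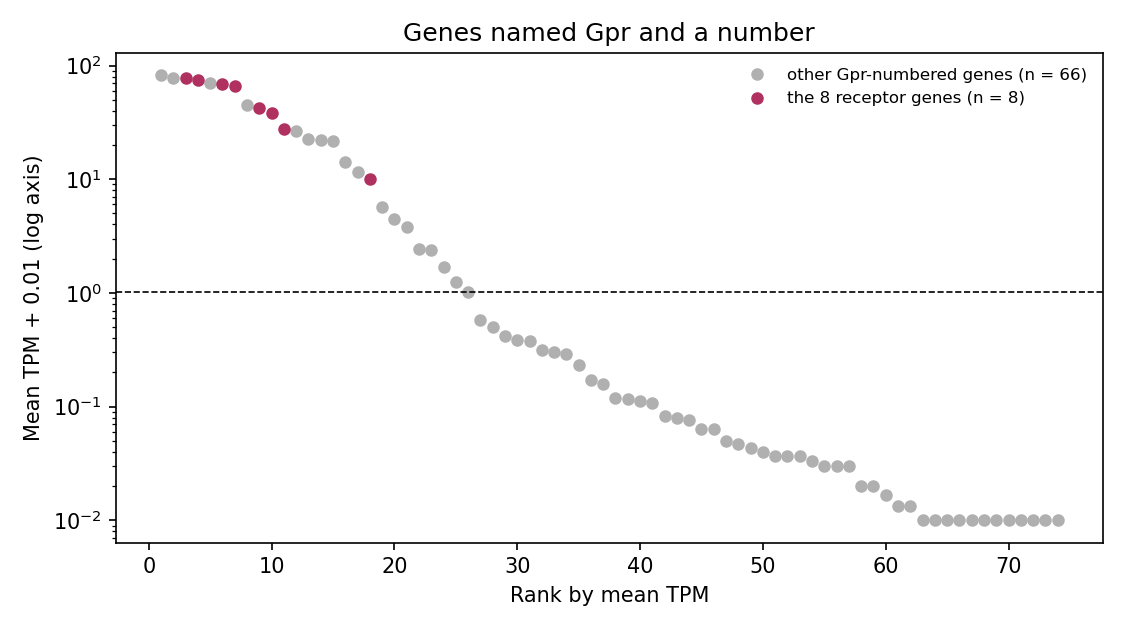
Mean TPM plus 0.01 (log axis) of the 74 genes named Gpr and a number, by rank, with the 8 receptors in dark red, 66 others in grey and a dashed line at 1 TPM. The receptors lie between ranks 3 and 18, and most other genes of the series fall below the line.

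Alpha subunits of the Gs, Gi and Gq classes were present. Of 13 alpha subunits, 10 were detected. Gnas (Gs) led with 692.7 ± 33.5 TPM, ahead of the Gi subunits Gnai2 at 617 ± 22.2 TPM and Gnai3 at 137 ± 3.57 TPM. Gna13 stood at 59.7 ± 2.11 TPM, while Gnao1 and Gnai1, subunits typical of neurons and other tissues, had 0.377 and 0.0467 TPM. Of the Gq class, Gna15 stood at 27.2 ± 6.65, Gna11 at 12.9 ± 0.281, Gnaq at 10.3 ± 3.04 and Gna14 at 3.4 ± 1.14 TPM. All 11 alpha subunits tested differed between libraries, with 1, 5 and 5 of them highest in libraries 1, 2 and 3, and 4 of them by a ratio of at least 1.5. Over all genes tested, 77.2% differed and 36.5% did so by that ratio, so these counts are near the background. Of 15 beta and gamma subunits, 8 were detected, led by Gng5 at 356.5 ± 22.3, Gnb1 at 315 ± 7.9 and Gnb2 at 250 ± 8.13 TPM, and 6 of 10 tested differed.

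Of the 23 genes of the cyclic AMP list, 14 were detected, led by the regulatory subunit Prkar1a at 384 ± 28.7 TPM and the cyclase Adcy7 at 130.4 ± 7.4 TPM. Adcy7 was the highest of 9 cyclases, ahead of Adcy3 at 26.1 ± 0.887 TPM. Of the 20 cyclic AMP genes tested, 19 differed between libraries, 7, 7 and 5 of them highest in libraries 1, 2 and 3. Over all genes tested, 77.2% differed, and 23.8%, 29.6% and 23.7% did so with their highest value in libraries 1, 2 and 3. A ratio of at least 1.5 was met by 9 of them, against 36.5% of all genes tested. Members differed in direction: Crem, a factor induced by cyclic AMP, had 64.5, 37.1 and 43.4 TPM, and Prkar2a, a regulatory subunit, had 12.4, 18.1 and 9.83 TPM.

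Of 15 receptor kinases and arrestins, 12 were detected, with a median of 19.6 TPM. Grk6 stood at 249 ± 19.8 TPM and Grk2 at 180.8 ± 20.2 TPM, kinases that mark active receptors, and Arrb2, the arrestin that then binds them, stood at 211.5 ± 7.11 TPM against 13.1 ± 0.446 TPM for Arrb1. Grk5 had 2.34 ± 0.36 TPM, and Grk3, Arr3 and Grk1 were under 1 TPM. Txnip, an arrestin-fold protein of glucose metabolism, was the highest of that list with 619 ± 67.9 TPM. Of 19 RGS genes, which speed the return of G proteins to rest, 10 were detected, with a median of 6.51 TPM, led by Rgs1 at 411 ± 33, Rgs10 at 275.5 ± 29 and Rgs19 at 160 ± 12.6 TPM, while Rgs4 and Rgs7 had 0 counts. Among the 29 other leukocyte receptors listed, Adgre5 at 379.7 ± 50.6, Ccr7 at 264 ± 40, Cxcr3 at 248 ± 43 and S1pr1 at 242 ± 49 TPM were the highest. Of the 29, 22 were detected, with a median of 26.2 TPM. Of 25 related receptors, 14 were, with a median of 2.62 TPM.

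**Figure D5:**
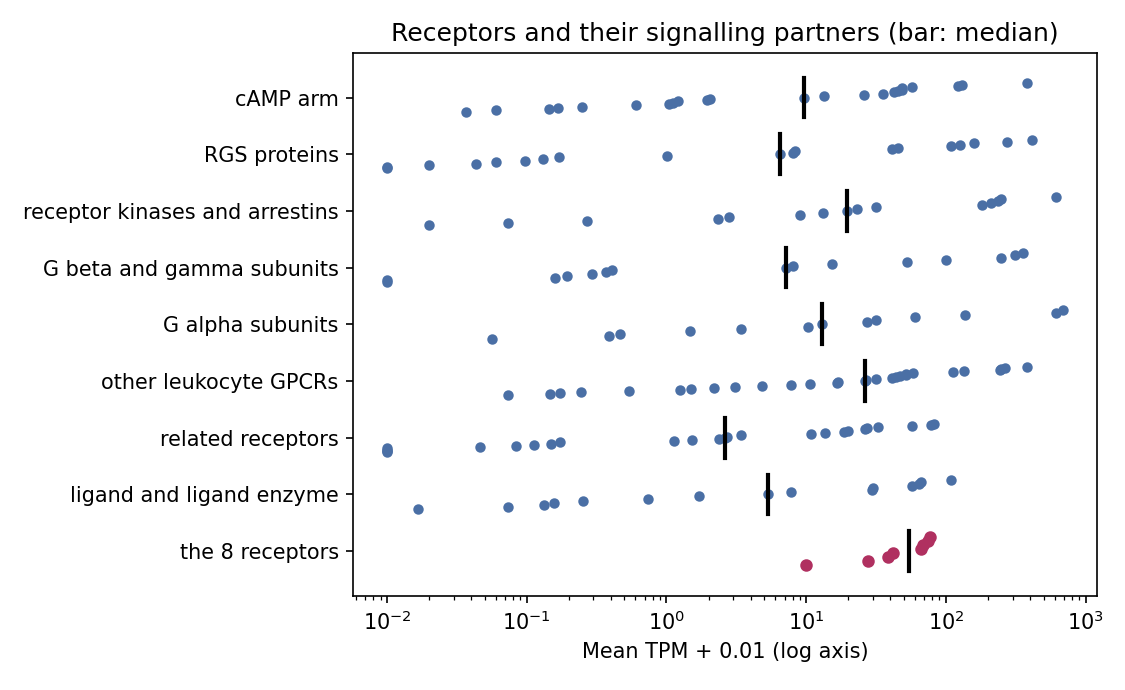
Mean TPM plus 0.01 over 3 libraries (log axis) of the 8 receptors (dark red) and of genes in each list of ligand enzymes, receptors, G protein subunits, regulators and cyclic AMP effectors (blue), with a bar at each list's median. The receptors lie between 10 and 77.0 TPM, below Gnas and Gnai2.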

How the data were processed

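Gene and transcript tables quantified by the authors against GENCODE M21 on mm10 gave expected counts, TPM and FPKM with posterior means, and scores that bound the TPM at an unstated level, per the file headers and the notes deposited with them. The deposited transcript tables give each transcript's percent of its gene's TPM. A second deposited table holds whole-number counts against annotation M4. The aligner, counting program, strand and handling of duplicates are not given in the sources used here. All 55536 gene identifiers matched the M21 annotation. Rows that are no genes (transfer RNAs, spike-ins) took 0.17% to 0.218% of counts and were left out of library sizes.

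Expected counts were rounded and scaled by TMM (edgeR 4.0.16, R 4.3.3). The 18253 genes averaging 10 or more counts were tested for equal levels over the 3 libraries, and in each pair, with a Poisson chi-square test, and p-values were Benjamini-Hochberg adjusted over all genes (threshold 0.05). With 1 group, no edgeR contrast exists. The test was checked on simulated Poisson counts, the noise that it assumes. That check cannot show how the test behaves where libraries vary beyond counting noise. Alternatives used DESeq2 1.42.0 size factors, total counts, no filter, M4 counts, other units and each library left out. Other steps ran in Python 3.11.15 with scipy 1.17.1, pandas 2.3.3 and numpy 2.4.6. A planned comparison of protein sequences was not run. M4 levels divide TMM-scaled M4 counts at a common depth by the mean M21 effective length. Promoters are RefSeq's, on GRCm38.p6.

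Members and lists were chosen with earlier results of these data known. Named genes are the 8 receptors, leading and lowest members of each list, genes that overlap or adjoin a receptor, high other Gpr genes, the 3 genes most like Gpr55 and markers; other list members that are named, and the motifs searched, were chosen after values were seen. Some results under this rule are not reported here.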

Additional observations from a re-analysis of the deposited data

How the results depend on the processing

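All 8 receptors differed between libraries under DESeq2 and total count scaling, without the filter and in the M4 counts. In the main setting 77.2% of all genes tested did, so this count is near the background. The shares over all genes under the other settings are not given here. With 1 library left out, 6 to 8 receptors differed, beside 8970 to 11045 of all 18253 genes tested. Of the 24 differences between pairs of libraries, 24 kept their direction and side of 0.05 under DESeq2 scaling, 23 without the filter, 20 under total counts and 16 in the M4 counts. In the M4 counts 7 were lost and Gpr174 in library 1 over library 3 turned to -0.03 on the log2 scale. The M4 totals are lower, and differences also changed in size. For Gpr55, library 2 over library 3 went from 0.60 to 0.19, and library 1 over library 2 from 0.26 to 0.66. Why calls were lost was not tested. The number of pairs of receptors set apart by level was 20 to 23, under rules that were not all alike. The authors' bounds were not applied to counts without length correction, M4 counts or the coding-transcript settings. With 1 library left out, only the remaining libraries had to agree. The pairs changed too. Without length correction Gpr18 over Gpr65 and Gpr65 over Gpr132 were lost. In the M4 counts 4 of the 20 were lost: Gpr83 over Gpr171 and Gpr174 over Gpr132, Gpr65 and Gpr171, the last 2 of them turned. In log2, Gpr18 minus Gpr83 was 0.08 and turned to -1.04 on depth-scaled counts without length correction; it ran from -0.21 (without library 1) to 0.23 with 1 library left out. Gpr15 minus Gpr174 was 0.03 and turned to -0.76 without length; it ran from -0.10 (without library 1) to 0.11. Gpr174 minus Gpr18 was 0.12 and turned to -1.38 in the M4 counts per kilobase, -0.65 over coding transcripts and -0.73 per kilobase of the longest coding transcript, the last pair of settings chosen after seeing the data. Gpr65 minus Gpr171 was 0.12 and turned to -0.08 in the M4 counts. The place of Gpr174 above Gpr65 and Gpr171 was lost in the M4 counts and under both coding-transcript settings; the cause was not tested. No paired analysis was possible because the 3 libraries form 1 group. Levels below about 1 TPM rest on few counts.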
